A study of Mus musculus with 5 samples.

Results

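The transcription factors that give pancreatic islet cells their identity were examined in sorted mouse islet cells, as 10 genes: Pdx1, Nkx6-1, Nkx2-2, Isl1, Pax6, Neurod1, Mafa, Foxa2, Rfx6 and Insm1. They were chosen by name, with earlier results of these data known, and all 10 were found among the 19938 genes measured. Each had 1 probe set annotated to it alone. The cells came from untreated C57BL/6 mice aged 8 to 12 weeks that were heterozygous for Flattop (FVR/+), a genotype shared by every sample. They had been sorted by FACS into Flattop-positive cells (3 arrays) and Flattop-negative cells (2 arrays), and each array carried RNA from a pool of 4 to 6 mice of undetermined sex. Flattop is the protein of Cfap126, an effector of planar cell polarity, and the aim named in the series title is to identify mature and proliferating β-cells. The sources used here do not say how the allele reported Flattop in the sort. The labels do not say that the pools came from separate sorts, so the p-values measure only the spread between these samples.

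Islet transcription factors act in a hierarchy. Foxa2, Pdx1 and Rfx6 act early, in the gut endoderm and the pancreatic lineages, Neurod1, Insm1, Nkx2-2, Pax6 and Isl1 carry endocrine differentiation, and Mafa switches on late, as β-cells mature. In the adult mouse islet Nkx6-1 and Mafa are found mainly in β-cells and Pdx1 in β- and δ-cells, while the others are shared with further endocrine cell types such as α-cells. Together they bind the insulin gene and many genes of glucose sensing and secretion, and loss of Pdx1, Nkx6-1, Nkx2-2, Pax6 or Neurod1 in adult mouse β-cells erodes their identity.

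Several of these factors bind DNA through short motifs that also lie in each other's control regions. Neurod1, as a basic helix-loop-helix protein, binds the E-box CANNTG with an E-protein partner, and homeodomain proteins such as Pdx1, Nkx6-1, Pax6 and Isl1 favour cores with the letters TAAT. Below are the 250 bases before an annotated transcript start of 4 genes, 5′ to 3′ on the gene's strand, from RefSeq on GRCm38.p6, with each E-box match in capitals. The Nkx2-2 window precedes a start inside the annotated span of that gene, and the other windows lie just before the span. Pdx1 and Nkx6-1 are shown because they differed at an unadjusted p under 0.05, Nkx2-2 because 1 array decided its value, and Isl1 because its mean was alike in the fractions.
Pdx1, chr5:147269847-147270096, plus strand: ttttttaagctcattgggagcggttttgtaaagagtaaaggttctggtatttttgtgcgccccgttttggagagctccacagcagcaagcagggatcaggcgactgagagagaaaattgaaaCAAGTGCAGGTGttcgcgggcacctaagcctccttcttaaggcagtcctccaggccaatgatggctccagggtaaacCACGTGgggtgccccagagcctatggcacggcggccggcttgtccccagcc
Nkx6-1, chr5:101664712-101664961, minus strand: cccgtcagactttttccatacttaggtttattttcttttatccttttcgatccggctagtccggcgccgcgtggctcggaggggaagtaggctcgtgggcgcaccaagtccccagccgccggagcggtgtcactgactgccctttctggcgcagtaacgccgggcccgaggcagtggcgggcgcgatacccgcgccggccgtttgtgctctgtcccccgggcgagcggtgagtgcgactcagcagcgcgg
Nkx2-2, chr2:147186403-147186652, minus strand: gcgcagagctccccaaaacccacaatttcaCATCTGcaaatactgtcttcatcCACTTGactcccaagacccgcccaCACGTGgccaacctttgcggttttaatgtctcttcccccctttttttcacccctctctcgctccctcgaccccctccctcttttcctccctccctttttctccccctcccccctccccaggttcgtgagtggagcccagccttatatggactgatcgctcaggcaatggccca
Isl1, chr13:116309689-116309938, minus strand: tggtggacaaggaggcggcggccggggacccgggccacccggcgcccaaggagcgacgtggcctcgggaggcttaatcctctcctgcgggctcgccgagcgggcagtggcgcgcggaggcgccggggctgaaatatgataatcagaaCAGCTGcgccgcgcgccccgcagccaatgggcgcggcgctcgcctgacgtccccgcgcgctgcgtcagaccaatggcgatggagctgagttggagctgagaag

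Both strands were searched for both motifs. The Pdx1 window held 3 E-box matches, beginning 128, 122 and 51 bases before the start, and the Nkx2-2 window 3, beginning 220, 197 and 173 bases before it. The Isl1 window held 1 match, 103 bases before the start, and the Nkx6-1 window 0. TAAT stood 2 times in the Isl1 window, 1 time in that of Nkx2-2 and 0 times in those of Pdx1 and Nkx6-1, and no TAAT match overlapped an E-box. For 8 of the 10 genes 11 windows were found, and 6 of these genes held an E-box and 5 held TAAT in at least 1 window. Among all 32851 windows of this length, each taken alone, 66.2% held an E-box and 54.9% held TAAT. Counts of genes and shares of windows are unlike measures, because a gene with several windows has more room for a match. A match describes letters in a window and says nothing of binding.

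Signals are log2 values made by RMA, so 1 unit is a 2-fold difference, and values of different genes are not set against each other because probe sets differ in response. The correlation of the signal over all genes was 0.953 to 0.984 between pairs of Flattop-positive arrays and 0.846 for the pair of Flattop-negative arrays. Between a Flattop-positive and a Flattop-negative array it was 0.896 to 0.937, so the Flattop-negative arrays were less alike than any of these pairs. Signals spread over genes with an SD of 1.83 to 1.93 on Flattop-positive arrays, against 1.65 and 1.63 on Flattop-negative replicates 1 and 2. Cfap126 itself averaged 6.13 ± 0.10 in Flattop-positive arrays (SD, n = 3) and 5.48 ± 0.05 in Flattop-negative arrays (SD, n = 2). The log2 difference was 0.64 ± 0.18 (SE, limma adjusted p = 0.274). Its arrays did not overlap between the fractions, but 13.7% of all genes were also higher without overlap. Among genes with a mean signal of 5.48 to 9.52 that share was 27.7%, so Cfap126 is only a weak check of the labels. The 95th percentile of 1027 olfactory receptor genes, a family used mainly in the nose, marks the floor of each array. This floor lay at 4.29 to 4.45 on Flattop-positive arrays, against 4.75 and 4.86 on Flattop-negative ones. All 10 factors stood above it on every Flattop-positive array. On the Flattop-negative arrays the exception was Mafa on replicate 1. The cells carried islet hormone transcripts in both fractions, with Ins2 at 12.64 to 13.08 in Flattop-positive and 12.37 and 13.04 in Flattop-negative arrays. Gcg stood at 12.81 to 13.17 in Flattop-positive and 13.06 and 13.39 in Flattop-negative arrays, both named after their values were seen. In bulk samples such as these, fewer cells of a type and less RNA per cell cannot be told apart.

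**Figure D1:**
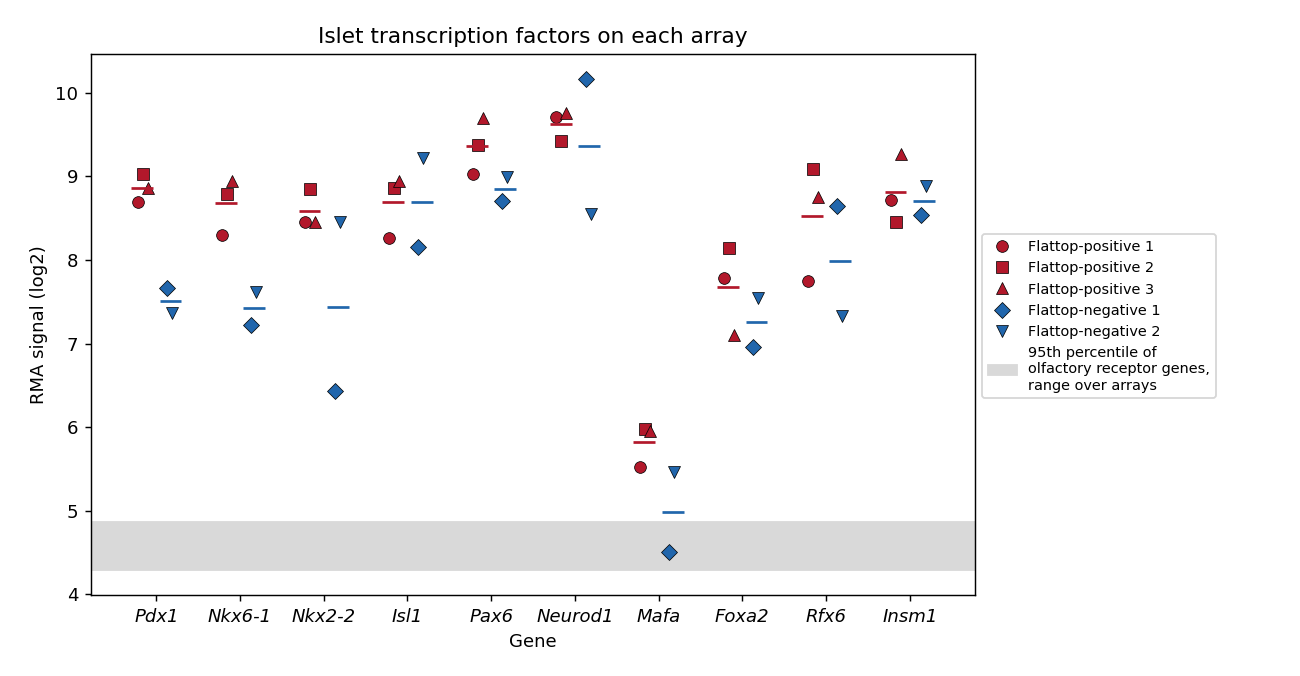
RMA signal (log2) of the 10 islet transcription factors on each array, with Flattop-positive arrays in red left of Flattop-negative arrays in blue; horizontal lines are group means and the grey band is the range over arrays of the 95th percentile of olfactory receptor genes. Pdx1 and Nkx6-1 separate the fractions by a wide gap, Nkx2-2 has 1 low array at 6.43, and Mafa lies nearest the band.

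The factors most tied to β-cells, Pdx1, Nkx6-1 and Mafa, each lay above the Flattop-negative arrays on all 3 Flattop-positive arrays. Pdx1, the homeodomain factor that forms the pancreas and later drives insulin transcription, had 8.69, 9.03 and 8.86 in Flattop-positive arrays, against 7.66 and 7.36 in Flattop-negative arrays. The closest arrays of the 2 groups were 1.03 apart, and the spread within each group was far smaller. Pdx1 thus averaged 8.86 ± 0.17 in Flattop-positive arrays (SD, n = 3) and 7.51 ± 0.22 in Flattop-negative arrays (SD, n = 2), a 2.55-fold difference. On the log2 scale that is 1.35 ± 0.21 (SE, 95% interval 0.82 to 1.89), with an unadjusted p of 0.000997 in limma that ranked Pdx1 at 97 of all genes. After Benjamini-Hochberg adjustment over all genes it did not pass (adjusted p = 0.198).

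Nkx6-1, a homeodomain repressor that keeps β-cells from taking up α-cell traits, had 8.30, 8.79 and 8.94 in Flattop-positive arrays, against 7.22 and 7.62 in Flattop-negative arrays. The closest arrays of the fractions were 0.68 apart. Its log2 difference was 1.26 ± 0.28 (SE, 95% interval 0.57 to 1.95), which is 2.39-fold (limma unadjusted p = 0.00464, adjusted p = 0.220).

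Mafa, the basic leucine zipper factor of late β-cell maturation, had 5.52, 5.98 and 5.95 in Flattop-positive arrays, against 4.51 and 5.46 in Flattop-negative arrays. The fractions did not overlap, but the nearest arrays were only 0.06 apart, and the low value of Flattop-negative replicate 1 lay under that array's floor, which limits the size of the difference. The log2 difference was 0.84 ± 0.34 (SE, 95% interval -0.02 to 1.69; limma unadjusted p = 0.0538, adjusted p = 0.365). It was 0.36 when Flattop-negative replicate 1 was left out and 1.31 when replicate 2 was.

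Among the homeodomain factors shared by several islet cell types, Nkx2-2, Pax6 and Isl1 had unlike patterns over the arrays. Nkx2-2, needed for β-cells to form and to hold their identity, had 8.45, 8.85 and 8.46 in Flattop-positive arrays, against 6.43 and 8.45 in Flattop-negative arrays. The low array was Flattop-negative replicate 1 alone, and replicate 2 lay only 0.003 below the lowest Flattop-positive array. The log2 difference of 1.15 ± 0.59 (SE; limma adjusted p = 0.437) therefore joins a difference of 2.16 against replicate 1 with one of 0.14 against replicate 2. Against replicate 1 alone it passed the adjusted threshold (limma adjusted p = 0.0453), with that lone array assumed to vary like the Flattop-positive ones.

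Pax6, a paired and homeodomain factor of all islet endocrine cells, had 9.03, 9.38 and 9.70 in Flattop-positive arrays, against 8.71 and 8.99 in Flattop-negative arrays. The groups did not overlap, yet the gap between the closest arrays, 0.04, was smaller than the spread within the Flattop-positive fraction. The log2 difference was 0.52 ± 0.27 (SE, 95% interval -0.14 to 1.19; limma adjusted p = 0.430).

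Isl1, a LIM homeodomain factor of endocrine maturation and survival, had 8.26, 8.86 and 8.94 in Flattop-positive arrays, against 8.16 and 9.22 in Flattop-negative arrays. The Flattop-negative arrays held both the lowest and the highest value. The means were 8.69 in both fractions, with a 95% interval of the difference of -0.99 to 0.99, so that a 1.5-fold difference in either direction lies within it (limma adjusted p = 0.999).

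Neurod1 and Insm1, which act in the endocrine programme downstream of Neurog3, overlapped between the fractions. Neurod1, a partner of Pdx1 on the insulin promoter, had 9.71, 9.42 and 9.76 in Flattop-positive arrays, against 10.17 and 8.55 in Flattop-negative arrays. Here Flattop-negative replicate 1, lowest for Nkx2-2, was the highest of the 5, and replicate 2 the lowest. The log2 difference of 0.27 ± 0.49 (SE; limma adjusted p = 0.806) turned to -0.54 when Flattop-negative replicate 2 was left out and became 1.08 when replicate 1 was.

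Insm1, a zinc finger transcriptional repressor that acts for endocrine differentiation, had 8.72, 8.45 and 9.27 in Flattop-positive arrays, against 8.54 and 8.88 in Flattop-negative arrays. The Flattop-negative values lay inside the Flattop-positive range. The log2 difference was 0.11 ± 0.30 (SE, 95% interval -0.65 to 0.86; limma adjusted p = 0.881).

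Foxa2 and Rfx6, which act early in the gut and endocrine lineages and persist in adult islets, overlapped as well. Foxa2, a forkhead factor that opens chromatin, had 7.79, 8.14 and 7.10 in Flattop-positive arrays, against 6.96 and 7.54 in Flattop-negative arrays. Flattop-positive replicate 3 lay among the Flattop-negative values, and the log2 difference was 0.42 ± 0.37 (SE; limma adjusted p = 0.608). Rfx6, a winged helix factor that sustains calcium channel and glucose sensing genes in β-cells, had 7.75, 9.09 and 8.75 in Flattop-positive arrays, against 8.65 and 7.33 in Flattop-negative arrays. It varied as much within the fractions as between them, with a log2 difference of 0.54 ± 0.56 (SE; limma adjusted p = 0.656). Leaving out Flattop-negative replicate 2 turned that value to -0.13, and leaving out replicate 1 made it 1.20.

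**Figure D2:**
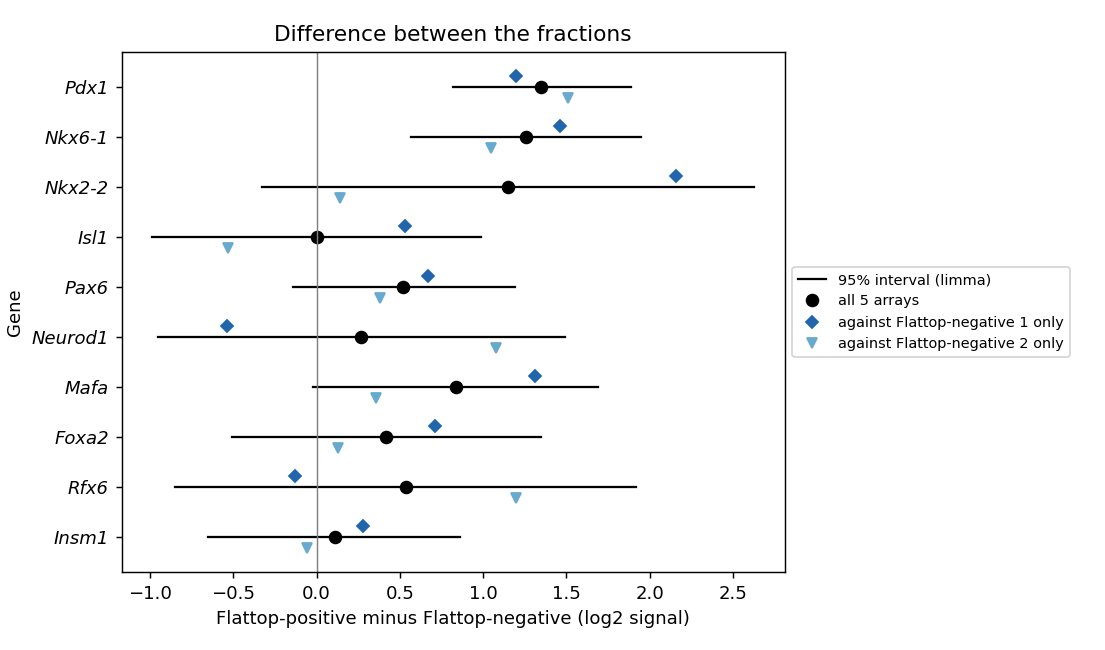
Log2 difference of each factor, Flattop-positive minus Flattop-negative, with black points and bars for the limma estimate and its 95% interval over all 5 arrays and blue symbols for the Flattop-positive mean against each Flattop-negative array alone. Pdx1 and Nkx6-1 keep their intervals above 0 and similar values against either array (1.20 and 1.51, 1.46 and 1.06), while Isl1, Neurod1, Rfx6 and Insm1 change sign between them.

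None of the factors passed an adjusted p of 0.05 (0 of 10), as none of the genes did (0 of 19938, percent called 0), while 2760 genes (13.8%) had an unadjusted p under 0.05 in limma. With a threshold of 1.5-fold beside that unadjusted p, 2 of the 10 were higher in Flattop-positive arrays, Pdx1 and Nkx6-1, against 8.08% of all genes. By the same rule 0 of 10 were lower, against 3.74%. Over all genes that rule gave 1610 higher and 746 lower. The balance was 905 to 628 when quantile normalisation was repeated, 1903 to 450 when each array was centred on its median, and 766 to 605 under cyclic loess. The fractions did not overlap for 5 of 10, all higher in Flattop-positive arrays (Pdx1, Nkx6-1, Nkx2-2, Pax6 and Mafa), against 13.7% of genes higher and 21% lower without overlap. By the mean alone, 9 of 10 were higher, against 40.8% of genes.

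The differences of all genes depended on signal, and the factors are mostly brightly detected. The median log2 difference was -0.28 for genes with a mean signal of 4 to 5 and 0.45 for those of 8 to 9. Among the 8426 genes with a mean signal in the range of the factors (5.48 to 9.52), 19.4% had an unadjusted p under 0.05 in either direction, 17.2% were called higher and 1.19% lower with 1.5-fold added. Without overlap, 27.7% of them were higher and 3.96% lower, and 70.4% had a higher mean. Read against these, 2 of 10 called is close to the share of genes of like signal. The factors' own median was 0.53, against 0.28 over those genes and -0.10 over all genes. Under cyclic loess, which removes such a trend between arrays, the factors' median was 0.04 and Pdx1, Mafa, Nkx6-1 and Nkx2-2 had 0.86, 0.81, 0.78 and 0.67. Pdx1 met the unadjusted rule under each of the 15 alternative settings tried, and Nkx6-1 under all of them except cyclic loess.

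**Figure D3:**
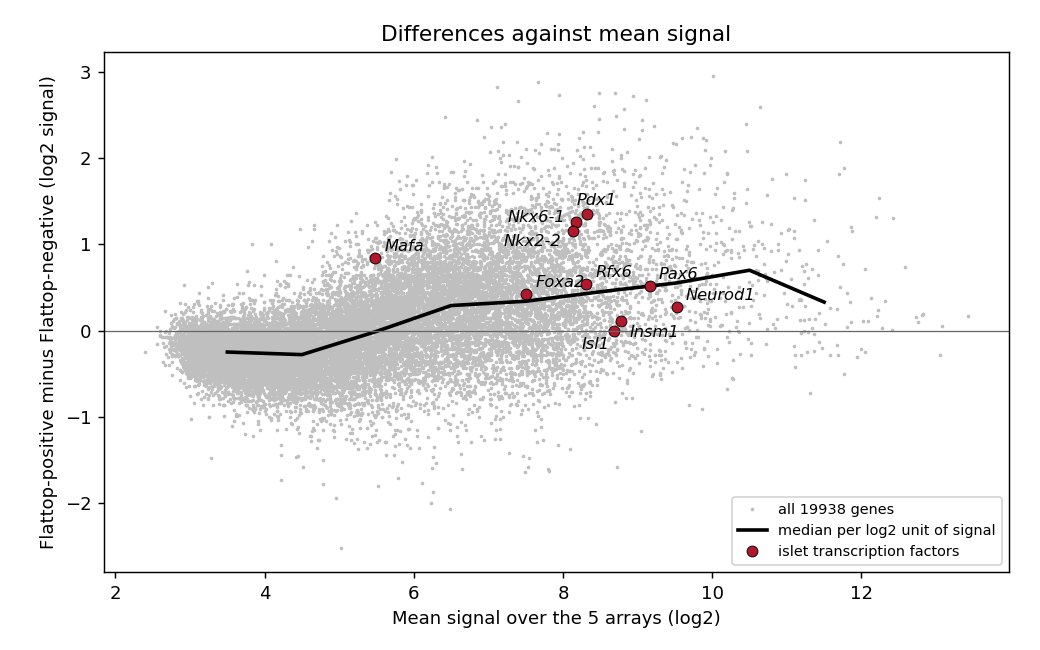
Log2 difference (Flattop-positive minus Flattop-negative) against mean log2 signal over the 5 arrays for all 19938 genes in grey, with the median per unit of signal as a black line and the 10 factors in red. The line climbs from -0.28 at a signal of 4 to 5 to 0.45 at 8 to 9; Pdx1, Nkx6-1, Nkx2-2 and Mafa lie well above it, Foxa2, Rfx6 and Pax6 close to it, and Neurod1, Insm1 and Isl1 below.

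The 2 Flattop-negative pools did not match for several of the other factors. Flattop-negative replicate 1 was below all Flattop-positive arrays for 7 of the 10, and so was replicate 2, but only 5 were the same. Isl1 and Foxa2 were below on replicate 1 alone, Neurod1 and Rfx6 on replicate 2 alone. Across all genes, 29.3% and 28.7% were below all Flattop-positive arrays on these replicates. The gap between the Flattop-negative arrays was 2.02 for Nkx2-2, 1.62 for Neurod1, 1.33 for Rfx6 and 1.07 for Isl1, against 0.31 for Pdx1, 0.28 for Pax6 and 0.34 for Insm1. Between replicates the factors had a median SD of 0.334 in Flattop-positive and 0.540 in Flattop-negative arrays, against 0.202 and 0.326 over all genes.

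Set against the shared factors on the same array, the β-cell factors were higher on each Flattop-positive array and lower on each Flattop-negative array. With each gene centred on its own mean, the average of Pdx1, Nkx6-1 and Mafa minus the average of the other 7 was 0.23, 0.31 and 0.32 on Flattop-positive arrays, against -0.51 and -0.35 on Flattop-negative arrays. A scaling of the whole array cancels in this quantity, but a trend with signal does not. The grouping follows known cell type ranges and was made with the results in view, so it carries no test.

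Genes that these factors are known to bind or need in β-cells were mostly higher in Flattop-positive arrays by their means. Of 35 listed, 30 were measured; 26 had a higher mean, 16 were called higher and 0 lower at the unadjusted p and 1.5-fold (against 8.08% and 3.74% of all genes), and 0 passed the adjusted threshold. Their median log2 difference was 0.93, against -0.10 over all genes. Genes with a mean signal of 8 to 9 and 9 to 10, where the array medians of this list lie, had medians of 0.45 and 0.55. At 10 to 11 the median was 0.70. Among the 8426 genes in the signal range of the factors, 17.2% were called higher. That range ends at 9.52, and some listed genes, such as G6pc2 and Slc30a8, are brighter. On repeated quantile normalisation the list had 9 called higher and a median of 0.60, and after cyclic loess 7 called higher, 1 lower and a median of 0.52. Its median was 0.66 to 0.97 with single arrays left out. Slc2a2, the glucose transporter whose gene Pdx1 activates, had 9.28, 9.07 and 9.15 in Flattop-positive arrays, against 7.84 and 7.53 in Flattop-negative arrays. Its log2 difference was 1.48 ± 0.20 (SE, limma adjusted p = 0.198). It was named for the smallest p of the list, a choice that favours a wide gap with little spread. The incretin receptor gene Gipr differed by 1.65 ± 0.24 and the fatty acid receptor gene Ffar1 by 1.72 ± 0.26 (SE; limma adjusted p = 0.198 each). The hormone genes Ins2 and Iapp, classic targets named after their values were seen, differed by 0.18 ± 0.28 and 0.10 ± 0.19 (SE, limma adjusted p = 0.767 and 0.825). Both lay near the top of the scale, where the highest signal of an array was 13.73 to 13.85. The 18 genes with a mean signal of 12 to 13 had a median difference of 0.18. Whether probe sets this bright can show a difference was not tested.

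Partners, modifiers and general coregulators of the factors were all measured (38 of 38, each above the floor on every array). Of these, 7 were called higher and 0 lower at the unadjusted p and 1.5-fold, with a median difference of 0.19. That count is near the 17.2% called higher among the genes of the factors' signal range, whose median was 0.28. Hdac3, a histone deacetylase, had 6.56, 6.72 and 6.56 in Flattop-positive arrays, against 5.60 and 5.06 in Flattop-negative arrays. Men1, which encodes menin, a scaffold of histone methyltransferases, had 7.31, 7.26 and 6.81, against 5.80 and 6.02. Spop, the adaptor of a ubiquitin ligase that targets Pdx1 protein for breakdown, had 8.84, 8.57 and 8.43, against 7.02 and 7.62. These 3 did not overlap between the fractions, but they were named for the smallest p of the list, a choice that favours this. Of the 38, 9 were higher and 2 lower without overlap. Over all genes the shares were 13.7% and 21%, and in the factors' signal range 27.7% and 3.96%. Hdac3, Men1 and Spop were 2.44-, 2.33- and 2.45-fold higher, with adjusted p of 0.203, 0.214 and 0.214 in limma. Leaving out Flattop-negative replicate 2 gave this list a median of 0.11, and leaving out replicate 1 gave 0.28. Leaving out Flattop-positive replicate 1 or 2 gave 4 called higher and 0 lower. In these 2 settings 4.66% and 5.64% of all genes were called higher. Under cyclic loess 3 were higher and 3 lower, with a median of -0.19, and when quantile normalisation was repeated 3 were higher and 1 lower, with a median of -0.08.

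Other transcription factors of the islet were divided in direction. Of 26 further islet factors measured (31 listed), 11 had a higher and 15 a lower mean, with 1 called in each direction and a median of -0.07. The median was -0.10 over all genes and 0.29 over genes with a mean signal of 6 to 7, where the array medians of this list lie. Glis3, which acts with Pdx1 and Mafa on the insulin gene, had 8.61, 8.69 and 8.27 in Flattop-positive arrays, against 7.58 and 8.03 in Flattop-negative arrays (log2 difference 0.72 ± 0.25, SE; limma adjusted p = 0.316). Myt1l, a zinc finger factor, lay the other way at -0.64 ± 0.23 (SE; adjusted p = 0.325). Atf5, a stress response factor of β-cells, differed by 0.97 ± 0.40 (SE; adjusted p = 0.365), with its single low value on Flattop-negative replicate 1. Leaving out Flattop-negative replicate 2 gave this list a median of 0.29, and leaving out replicate 1 gave -0.11.

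Among 17 progenitor and immaturity factors, 2 had a higher and 15 a lower mean, with a median of -0.37 and 0 called in either direction. Over all genes 40.8% had a higher mean, 8.08% were called higher and 3.74% lower, and the median was -0.10. Genes with a mean signal of 4 to 5 and 5 to 6, where the array medians of this list lie, had medians of -0.28 and -0.01. Of the 17, 10 were above the floor on every array. Pou5f1 was under the floor on all 5 arrays, so no size is given for it. Gata4 and Onecut2, factors of pancreatic progenitors, had differences of -0.46 ± 0.27 and -0.64 ± 0.40 (SE; limma adjusted p = 0.474 and 0.492). The median of the list became -0.04 when Flattop-negative replicate 2 was left out, and -0.60 when replicate 1 was.

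Paralogs from the DNA-binding families of the 10 factors (21 of 22 measured) had a median of -0.18, with 0 called in either direction and 11 above the floor on every array. The median was -0.10 over all genes, and -0.28 and -0.01 over genes with a mean signal of 4 to 5 and 5 to 6. Foxa3, a hepatic and gut relative of Foxa2, averaged 7.37 ± 0.32 in Flattop-positive arrays (SD, n = 3) and 6.87 ± 0.11 in Flattop-negative arrays (SD, n = 2), without overlap (log2 difference 0.50 ± 0.25, SE; limma adjusted p = 0.429). Pax2, a kidney and eye factor, differed by -0.31 ± 0.18 (SE; adjusted p = 0.479). Nkx2-1, a lung and thyroid factor, was under the floor on 3 of 5 arrays.

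Markers of the cell types that an islet sort can hold were set beside these values. β-cell markers other than the 10 factors (12 of 12) had a median difference of 1.24, with 8 called higher and 0 lower, against 8.08% of all genes and 17.2% of those in the factors' signal range called higher. Of these 12, 11 are also among the downstream genes above, so the lists do not count separate genes. The median was 0.68 with Flattop-negative replicate 2 left out, 0.81 on repeated quantile normalisation and 0.78 after cyclic loess. Over all genes with a mean signal of 8 to 9, 9 to 10 and 10 to 11, it was 0.45, 0.55 and 0.70. The array medians of this marker list lie in that range of signal. Slc2a2, Ffar1 and Glp1r led by p, the incretin receptor gene Glp1r at 1.83 ± 0.34 (SE; limma adjusted p = 0.207). Their summed linear signal was 24443 to 29571 in Flattop-positive and 19142 and 20550 in Flattop-negative arrays. α-cell markers (11 of 14) had a median of -0.40 with 10 lower means and 4 called lower, Smarca1, Sstr2, Gria3 and Dpp10, the last named after its value was seen. Over all genes 3.74% were called lower and 40.8% had a higher mean. Genes with a mean signal of 4 to 5 and 5 to 6, where the array medians of the α-cell list lie, had median differences of -0.28 and -0.01. The summed signal of the α-cell markers, mostly Gcg and Ttr, was 12542 to 14947 in Flattop-positive arrays and 9827 and 17862 in Flattop-negative arrays. The median of the α-cell markers was -0.93 with Flattop-negative replicate 1 left out and -0.12 with replicate 2 left out. Smarca1 had 5.53, 5.42 and 5.59 in Flattop-positive arrays, against 7.69 and 7.08 in Flattop-negative arrays.

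δ- and PP-cell markers (10 of 11) had a median of -0.04 and a summed signal of 16022 to 24064 in Flattop-positive arrays, against 4144 and 32723 in Flattop-negative arrays. That median joins opposite values, -0.77 when Flattop-negative replicate 1 was left out and 0.64 when replicate 2 was. Sst stood at 12.32, 12.33 and 12.93 in Flattop-positive arrays, against 8.08 and 13.19 in Flattop-negative arrays, so the pool of Flattop-negative replicate 1 was the one poor in this hormone transcript. Of this list Sstr3 was called higher (1.29), a call lost without Flattop-negative replicate 1 and without Flattop-positive replicate 1 or 2, and Ghrl had -0.48. Pdx1 is also a factor of δ-cells, and the part of δ-cells in its difference was not tested.

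Lists of markers for cells outside the endocrine islet mostly had their highest sums on Flattop-negative replicate 2. This array also had the highest floor (4.86). Summed signals of immune markers (18 of 18) were 452 to 565 in Flattop-positive arrays, against 401 and 1330 in Flattop-negative arrays, and those of stellate markers (14 of 14) 274 to 380, against 338 and 959. Acinar (15 of 18), endothelial (15 of 15), duct (12 of 14) and glial (8 of 10) markers summed to 389 to 644, 274 to 328, 5560 to 8548 and 246 to 335 in Flattop-positive arrays. In Flattop-negative arrays they summed to 509 and 687, 277 and 431, 3996 and 8077, and 346 and 387. Such sums follow their brightest genes, Krt8 and Krt18 (duct), Ncam1 (glial) and, except on Flattop-negative replicate 2, Bhlha15 (acinar). Krt8 stood at 10.83 to 11.97 in Flattop-positive and 11.41 and 11.61 in Flattop-negative arrays. Ncam1 stood at 6.46 to 7.55 and at 7.49 and 7.64. Cftr and Car2 of the duct list and Gfap and S100b of the glial list were under the floor on all 5 arrays. Whether the bright duct and glial genes came from cells outside the endocrine islet was not tested. On Flattop-negative replicate 2, Lyz2 (9.41) was the brightest immune and Vim (8.59) the brightest stellate marker. These genes were named after their values were seen, and the sums do not measure numbers of cells. By the unadjusted p and 1.5-fold, the lower ones were C1qc and H2-Ab1 (immune), Dcn and Rgs5 (stellate), Cela3b and Cel (acinar), Flt1 (endothelial) and Cdh19 (glial). The higher ones were Cd79a and C1qa (immune) and Krt7 (duct), where C1qa was named after its value was seen. With Flattop-negative replicate 1 left out, the median differences were -0.60 (immune), -0.85 (stellate), -0.77 (acinar) and -0.54 (endothelial), against -0.08 over all genes. With replicate 2 left out they were 0.04, -0.17, -0.14 and -0.07, against -0.07 over all genes. Markers above the floor numbered 2 to 6 of 15 endothelial, 5 to 10 of 14 stellate, 5 to 11 of 18 immune, 5 to 9 of 15 acinar, 3 to 4 of 8 glial and 7 to 9 of 12 duct genes per array. Cel, H2-Ab1 and Cdh19 were under it on all 5. Krt7, a duct keratin, differed by 1.85 ± 0.53 (SE; limma adjusted p = 0.275). The part of these cells in the differences was not tested.

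**Figure D4:**
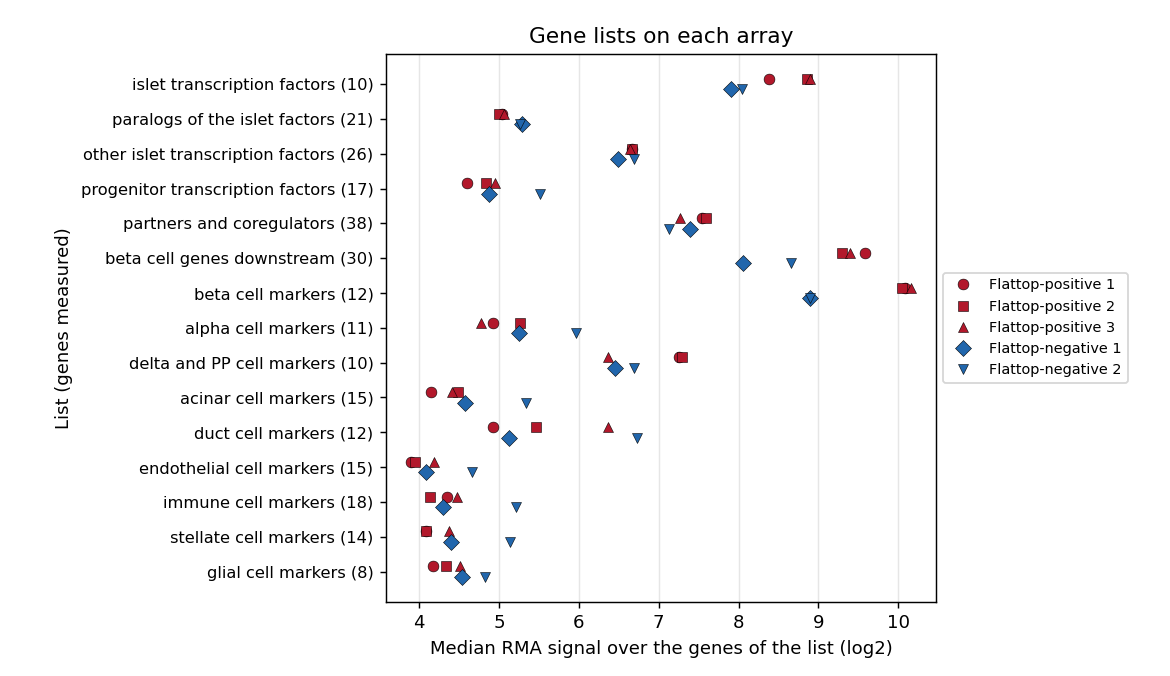
Median log2 RMA signal over the genes of each list on each array, Flattop-positive in red above Flattop-negative in blue within a row, with the number of genes measured in brackets. β-cell markers and genes downstream of the factors lie higher on all 3 Flattop-positive arrays. Flattop-negative replicate 2 is the highest of the 5 for the immune, stellate, endothelial, acinar, glial, duct, α-cell, progenitor and other islet factor lists. It also has the highest median of all genes (5.23) and the highest floor (4.86). Its endothelial and glial medians (4.66 and 4.83) lie under that floor.

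Genes with the pattern most like that of a factor were ranked by the mean absolute difference between gene-centred log2 values over the 5 arrays, among genes with a mean signal of at least 6 (6770 candidates, 6771 for Mafa). For Pdx1 these were Eif2b5, Srsf9 and Nod1 (0.061 to 0.084), for Nkx6-1 Glrx, Pcx and Samm50 (0.083 to 0.094), and for Mafa Htra2, Macroh2a1 and Bscl2 (0.069 to 0.082). Isl1 was followed less closely, by Klf14, Dennd4b and Mxd1 (0.108 to 0.114). Pcx, pyruvate carboxylase, is also in the list of genes downstream and had 6.43, 7.06 and 7.24 in Flattop-positive arrays, against 5.72 and 5.96 in Flattop-negative arrays. Among the 10 factors the closest pairs were Nkx6-1 with Mafa (0.209), Pax6 with Insm1 (0.232), Pax6 with Mafa (0.237) and Pdx1 with Nkx6-1 (0.256). With 5 arrays such likeness describes these arrays only.

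**Figure D5:**
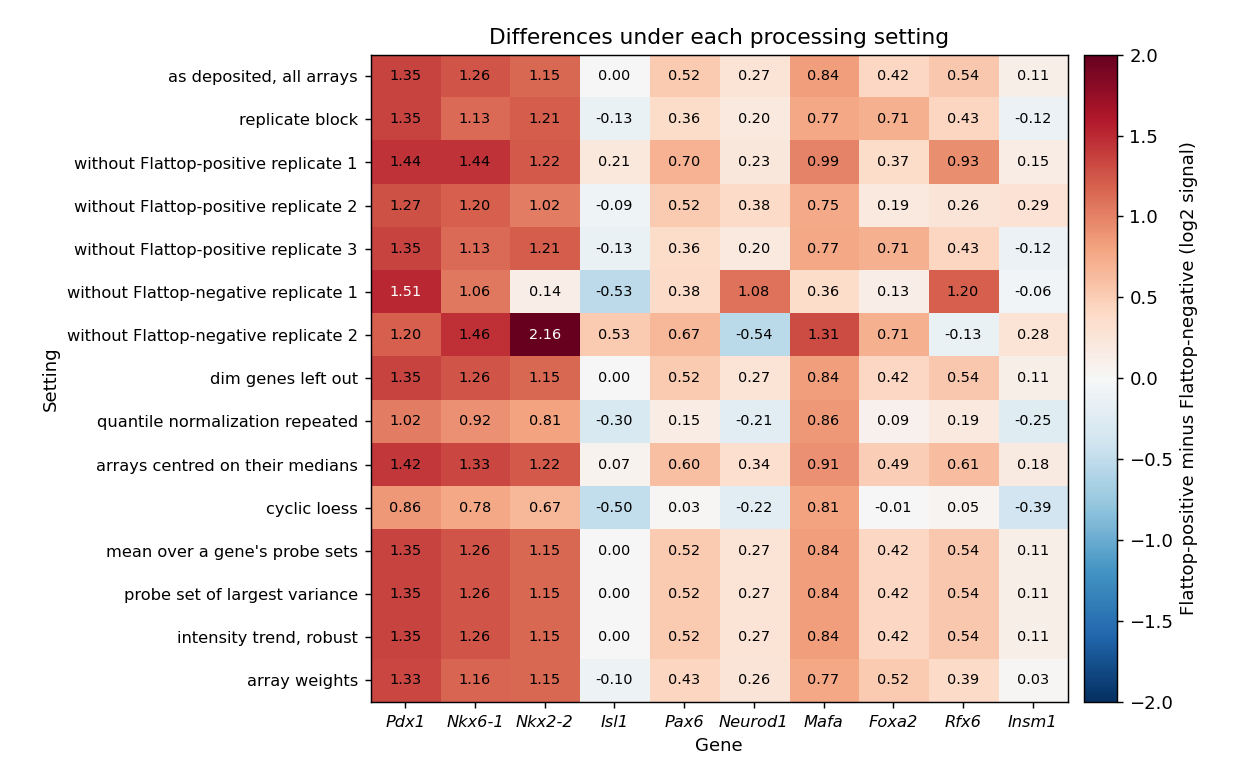
Log2 difference (Flattop-positive minus Flattop-negative) of each factor under the values as deposited and 14 alternative settings, red for higher and blue for lower in Flattop-positive arrays. Pdx1, Nkx6-1, Nkx2-2, Pax6 and Mafa are above 0 in every row, Isl1 runs from -0.53 to 0.53, and the rows without Flattop-negative replicate 1 or 2 move Nkx2-2, Neurod1 and Rfx6 the most.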

How the data were processed

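Gene expression was measured on Affymetrix arrays, 1 per pool of sorted islet cells (3 Flattop-positive, 2 Flattop-negative; the labels' titles gave groups and replicate numbers). RNA was extracted with miRNeasy Micro and amplified with Ovation PicoSL WTA, per the labels' protocols. The deposited values are log2 signals that the authors made by RMA, which corrects background, normalises between arrays and summarises probe sets; the submitters' processing notes name Affymetrix Expression Console 1.3.0.187. The sources used here name no genome build.

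Of 35556 probe sets, 21789 had 1 gene symbol in the platform annotation, 1621 several and 12146 none; the brightest per gene was kept (19938 genes, of which 999 had several). Of the annotated gene IDs, 21698 matched the RefSeq gene table, which changed 0 symbols. Fractions were compared in limma 3.58.1 (R 4.3.3) on all 5 arrays, with group as the only term, two-sided, adjusted by Benjamini-Hochberg over all genes; the model was tested on simulated data. With 3 and 2 arrays the smallest p of an exact two-sided permutation test is 0.2, and the number of arrays limits all precision. Named were the 10 factors, Cfap126, up to 3 genes per list by p, and the 3 most similar genes for 4 factors, unless stated. The factors and 14 lists (247 of 269 entries measured) were chosen with earlier results of these data known; lists have counts and medians, no test. The alternatives tried were a replicate block, single arrays removed, dim genes removed, 3 further normalisations, 2 further probe set rules, a robust trended variance, array weights and a 2-fold threshold. Software also included pandas 2.3.3 and matplotlib 3.10.9.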

Additional observations from a re-analysis of the deposited data

How the results depend on the processing

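Under the 14 alternatives that refit them (all but the 2-fold threshold), 126 of 140 differences of single factors kept their direction and side of the adjusted threshold. Repeated quantile normalisation gave -0.21 for Neurod1 and -0.25 for Insm1, cyclic loess gave -0.22 for Neurod1, -0.39 for Insm1 and -0.01 for Foxa2. Pax6 was 0.15 and 0.03 and Isl1 -0.30 and -0.50 under these normalisations, and arrays centred on their medians gave 0.07 for Isl1. The replicate number as a block gave -0.12 for Insm1 and changed no call of a factor; the labels give no pairing, the numbers cover 2 of the 3 Flattop-positive arrays, and it left 384 genes lower at the unadjusted p and 1.5-fold. With single arrays left out, Isl1 ran from -0.53 to 0.53, Neurod1 from -0.54 to 1.08, Rfx6 from -0.13 to 1.20, Insm1 from -0.12 to 0.29 and Nkx2-2 from 0.14 to 2.16. The factors' median ran from 0.37 to 0.81, their count called higher at the unadjusted p from 2 to 4 and at the adjusted p from 0 to 1; the single adjusted call and the count of 4 (with Mafa and Nkx2-2) came without Flattop-negative replicate 2. That median was 0.17 on repeated quantile normalisation and 0.04 after cyclic loess. Over all genes, single arrays left out gave 0 to 434 at the adjusted p (434 without Flattop-negative replicate 2), 930 to 2520 higher and 268 to 2202 lower. Genes higher were 905 on repeated quantile normalisation, 766 after cyclic loess and 873 at 2-fold; genes lower were 222 with dim genes left out, 450 with arrays centred, 416 with array weights and 69 at 2-fold. The cause of these moves was not tested. Signal over the floor limits Mafa, and the spread between arrays limits all 10.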
